A study of Mus musculus with 10 samples.

Results

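The genes described here are the mouse genes of membrane trafficking and vesicle fusion whose symbols begin with Rab, Arf, Stx, Vamp, Snap, Syt, Vps or Snx followed by a number. The symbol rule found 184 of the 21000 protein-coding genes of the RefSeq annotation of GRCm38.p6 (mm10) with a curated start site on a chromosome. They were 69 Rab, 6 Arf, 15 Stx, 7 Vamp, 5 Snap, 17 Syt, 35 Vps and 30 Snx genes. Vamp7 also met the symbol rule, but it lies on an unplaced scaffold of this assembly and was not analysed here. The rule works on names and not on function. It therefore also took in the Rab effectors and regulators Rab11fip, Rab3gap, Rab3il and Rab3ip, the clathrin assembly gene Snap91, and Vps72, which encodes a chromatin protein.

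Rab and Arf proteins are small GTPases that switch between an active and an inactive state and mark the membranes on which vesicles form, move and dock. Fusion is carried out by SNARE proteins, among them the syntaxins (Stx), the vesicle-associated membrane proteins (Vamp) and the SNAP25 family (Snap), and synaptotagmins (Syt) couple release to calcium. Vps proteins build the complexes that sort and tether endosomal and Golgi vesicles, and sorting nexins (Snx) shape and sort endosomes, so that these families together serve the release of transmitters and neuropeptides by hypothalamic neurons.

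ERα binding had been mapped in the hypothalamus by ChIP-seq, in 4 libraries from the arcuate nucleus and 4 from the AVPV. An antibody against ERα, the estrogen receptor, pulls down the DNA it occupies, and positions where the sequenced reads pile up are reported as peaks. All libraries came from ovariectomised C57BL/6 female mice with a 2 cm subcutaneous tube of 17β-estradiol in sesame oil (0.1 mg/mL), injected with estradiol benzoate in sesame oil (0.05 mg/kg) and collected 28 h later, so every library is from estradiol-treated animals and no untreated group was compared. Chromatin was pooled from dissected tissue holding many cell types, separate pools per library are not stated in the labels, and spread between libraries may therefore be technical.

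A gene was counted as bound in a library when its start site was the nearest start site of at least 1 peak centre, and as bound in a nucleus when this held in at least 2 of the 4 libraries. The promoter was the stretch between 1 kb before and 100 bp after a start site. Nearness does not show that a peak acts on the gene, nor does a missing peak show that ERα was not there. Arcuate lists held 3251 to 4079 peaks and AVPV lists 2367 to 3347, so that the arcuate had more chances of a peak near any gene. Read depth is not part of the lists. Peak lists carry no expression values, so the dissected nucleus could not be checked against marker genes. Arcuate library 4 and AVPV library 3 stood apart before any gene was considered. Their median distance from a peak to the nearest start site was 0.643 and 0.572 kb, against 6.23 to 20.1 kb in the other 6 libraries. Counts over all trafficking genes are given with and without them. Subfamily, region and motif results are from all 8 libraries unless stated.

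ERα peaks lay nearest to 29, 35, 30 and 32 trafficking genes in arcuate libraries 1 to 4 and to 21, 21, 36 and 27 in AVPV libraries 1 to 4. The means were 31.5 ± 2.65 (SD, n = 4) and 26.2 ± 7.09 (SD, n = 4). The 2 nuclei overlapped, since AVPV library 3 had the most of all 8 libraries. The difference of 5.25 genes between the means was smaller than the SD in the AVPV, and it was 1.5 genes in lists cut to equal length. Without arcuate library 4 and AVPV library 3 the means were 31.3 and 23, and every remaining arcuate library (29, 35 and 30) was then above every remaining AVPV library (21, 21 and 27). All protein-coding genes were separated in the same way, with 2670, 2674 and 2271 genes against 1766, 1864 and 2099. With a limit of 20 kb the counts were 22, 28, 24 and 26 in the arcuate and 17, 18, 31 and 23 in the AVPV, and within promoters 13, 16, 12 and 15 against 11, 12, 18 and 13. The promoter counts of the nuclei thus differed by a mean of 0.5 genes. Without the 2 promoter-rich libraries the mean differences were 5.33 genes within 20 kb and 1.67 in promoters.

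In each library the share of trafficking genes with a peak was above the share of all protein-coding genes, by 1.24 to 1.51 times in the arcuate and 1.29 to 1.65 times in the AVPV. As a mean over libraries it was 17.1% ± 1.44 (SD, n = 4) against 12.1% ± 0.901 (SD, n = 4) of all genes in the arcuate, and 14.3% ± 3.85 (SD, n = 4) against 9.78% ± 1.52 (SD, n = 4) in the AVPV. For promoters the ratio was 1.55 to 2.01 in the 8 libraries. These are descriptions without a test, because the gene list was drawn up with results of these data known.

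**Figure D1:**
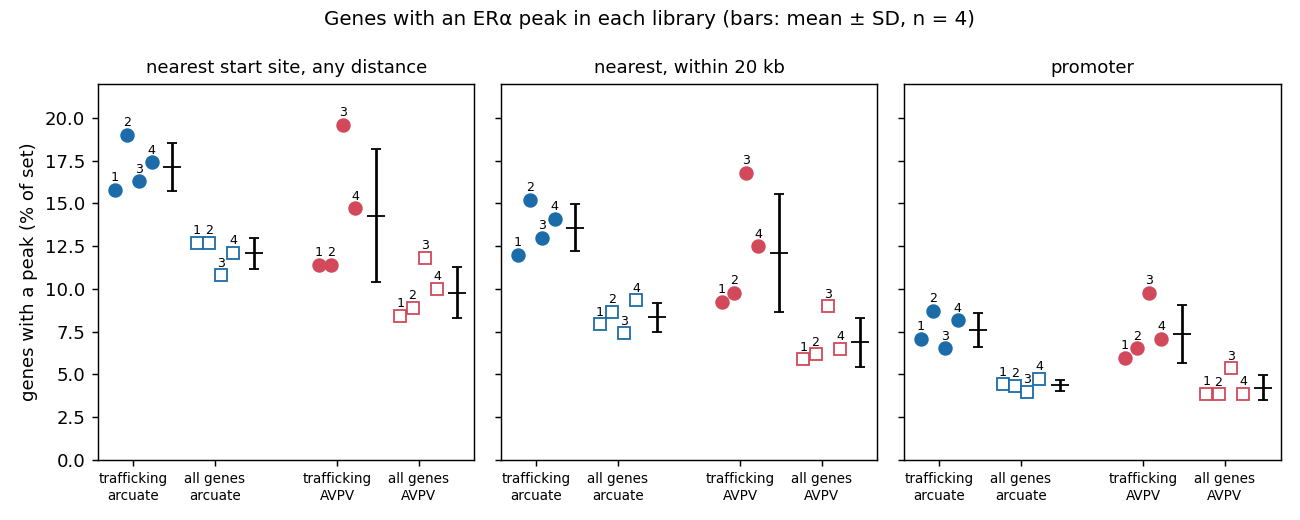
Percent of genes with an ERα peak in each library under 3 rules, for the 184 trafficking genes (filled circles) and all 21000 protein-coding genes (open squares); numbers are library numbers and bars are the mean ± SD of 4 libraries. Trafficking genes lie above all genes in each of the 8 libraries under each rule, and AVPV library 3 has the highest trafficking value of the 8 under each rule.

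In the arcuate 34 of 184 trafficking genes (18.5%) were bound, against 12.7% of all protein-coding genes, and in the AVPV 26 (14.1%), against 10.2%. Of these, 23 were bound in both nuclei (12.5%, against 8.24%). There were 11 bound in the arcuate only (5.98%, against 4.46% of all genes) and 3 in the AVPV only (1.63%, against 1.99%). A peak in all 8 libraries was found for 16 (8.70%, against 4.20%), and no peak in any library for 127 (69.0%, against 76.4%). Within 20 kb, 26 were bound in the arcuate (14.1%, against 8.51%) and 21 in the AVPV (11.4%, against 7.14%). At promoters the counts were 15 in the arcuate (8.15%, against 4.48%), 13 in the AVPV (7.07%, against 4.47%) and 8 in all 8 libraries (4.35%, against 1.44%). The shares were thus above those of all genes for bound genes of each nucleus and for genes common to all libraries, whereas the share bound in the AVPV only was not. Without the 2 promoter-rich libraries, 30 were bound in the arcuate and 21 in the AVPV, shares that were 4.96 and 2.94 percentage points above those of all genes, and 16 (8.70%, against 4.66% of all genes) had a peak in all 6 libraries.

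The background of all genes differed from the trafficking genes in their start sites. A CpG-rich start site, from 250 bp upstream to 50 bp downstream, was found for 73.9% of trafficking genes and 49.7% of all genes. Among genes with such a start site, 18.4% of trafficking genes (25 of 136) were bound in the arcuate and 18.1% of all genes, and in the AVPV 13.2% and 14.9%. Among the others, 18.8% of trafficking genes (9 of 48) were bound in the arcuate and 7.35% of all genes, and in the AVPV 16.7% and 5.61%. The excess over all genes was thus absent among genes with a CpG-rich start site and present among the 48 others. This division was made after the values were seen.

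No trafficking gene separated the nuclei completely. Of 184 genes 0 had peaks in 4 arcuate and 0 AVPV libraries, against 0.405% of all genes, and the opposite for 0, against 0.119%. In Fisher's exact test per gene (two-sided, 4 libraries against 4), none of 4954 genes with a peak passed at a Benjamini-Hochberg adjusted p of 0.05. The smallest p that this design allows is 0.0286, which could pass only if most of these genes separated the nuclei completely. The adjusted test therefore could not single out a gene. The 110 genes with an unadjusted p under 0.05 were those that separated the nuclei completely. Peaks in 3 arcuate libraries and no AVPV library were found for Snx19, Syt9 and Vps35l (1.63%, against 1.32% of all genes; exact p = 0.143 for each, adjusted p = 1.00), and peaks in at least 3 AVPV libraries and no arcuate library for 0, against 0.324%.

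To compare positions as well as genes, overlapping peaks (by 1 bp or more) from the 8 libraries were joined into regions. Trafficking genes were nearest to 76 regions, of which 44 had peaks in at least 2 of 4 libraries of a nucleus. Of these 44, 15 were called in the arcuate only (34.1%, against 33.1% of the 3527 regions of all protein-coding genes), 4 in the AVPV only (9.09%, against 16.2%) and 25 in both (56.8%, against 50.7%). Of the 44, 14 (31.8%) had a peak in all 8 libraries, against 26.2%. One kind of complete separation, 4 arcuate and 0 AVPV libraries, was met by 1 region (2.27%, against 3.20%), downstream of Rab3gap1, and the opposite kind by 0, against 1.56%. Promoters held 18 of the 44 regions (40.9%, against 32.3%), exons 4, introns 9 and intergenic DNA 13.

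**Figure D2:**
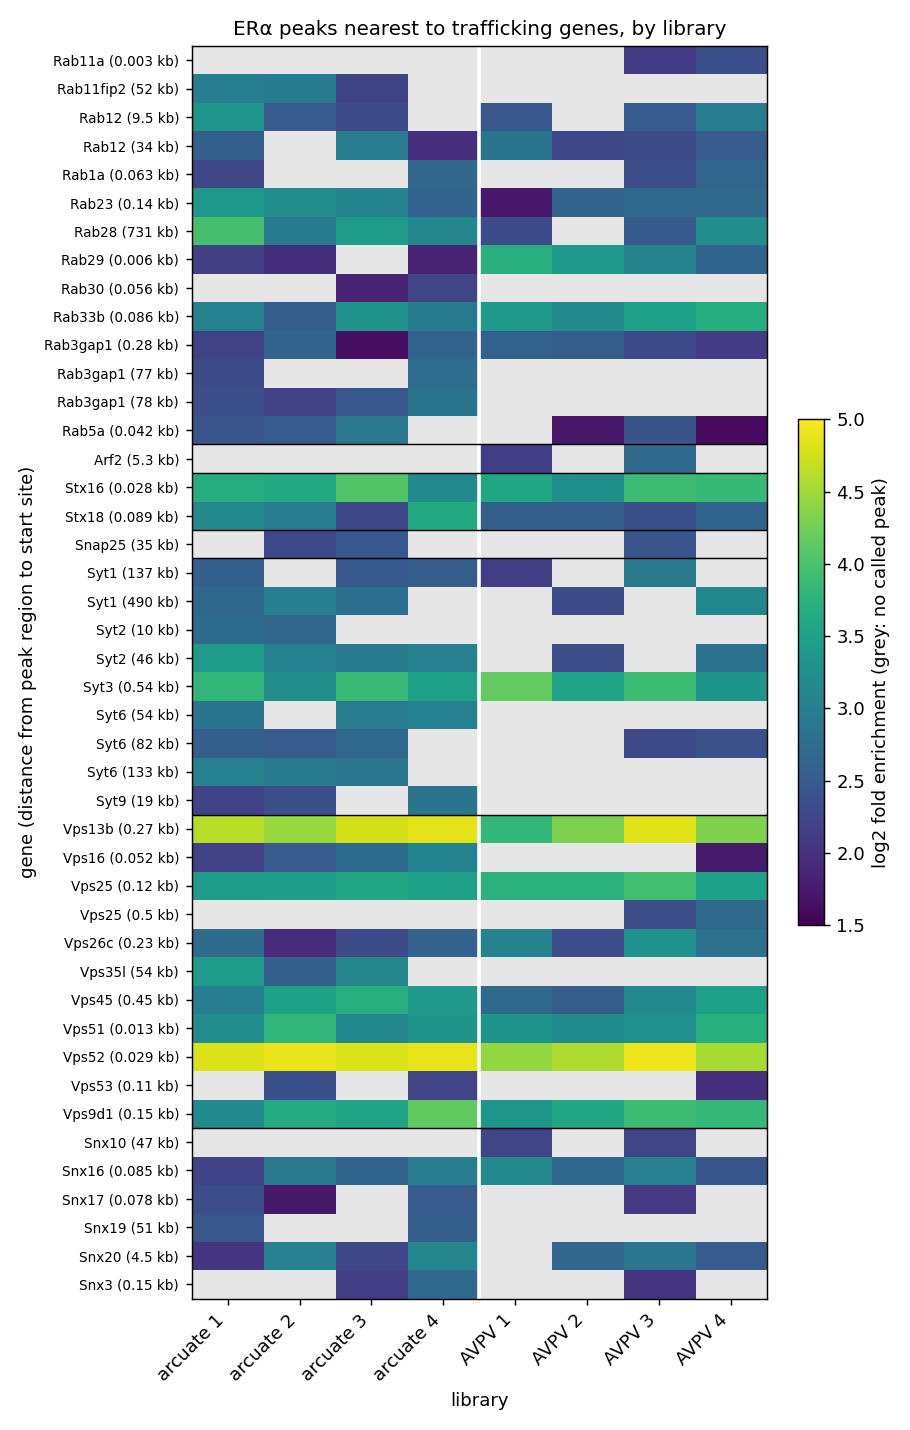
Log2 fold enrichment in each library of the 44 regions called in a nucleus, one line a region with its nearest trafficking gene and distance to the start site, grouped by subfamily; grey marks a library without a called peak. The Vps52 line is the brightest in each library, followed by Vps13b except in AVPV library 1, where Syt3 is second, and only the Rab3gap1 region at 78 kb is filled in 4 arcuate libraries and empty in 4 AVPV libraries.

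The regions fell into 2 kinds by distance. Of the 44, 24 lay within 1 kb of a start site and 20 farther away. All 14 regions with a peak in all 8 libraries were among the 24, whereas 0 of the 20 distant regions had a peak in all 8; over all protein-coding genes these shares were 39.1% and 16.4%. The estrogen response element, the sequence recognised by an ERα dimer, was searched within 100 bp of the summit as the 6 bases AGGTCA, 3 free bases and the reverse complement TGACCT, with at most 2 mismatches in these 12 fixed bases. It was present in 14 of 44 regions (31.8%), against 33.1% of the regions of all genes, and in 2.27% of windows moved by 5 kb. It was in 1 of the 24 near regions (4.17%, against 4.58%) and in 13 of the 20 distant ones (65.0%, against 55%). None of the 18 promoter regions held it, against 3.42% of promoter regions of all genes. The GC box GGGCGG, read like the other motifs on both strands and with overlaps between motifs allowed, showed the reverse arrangement, with 15 of 24 near regions (62.5%, against 40.9%) and 2 of 20 distant regions (10%, against 4.15%). TGANTCA, bound by AP-1 factors, was in 3 regions (6.82%, against 6.10%). A match is a description of letters and not evidence of contact.

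**Figure D3:**
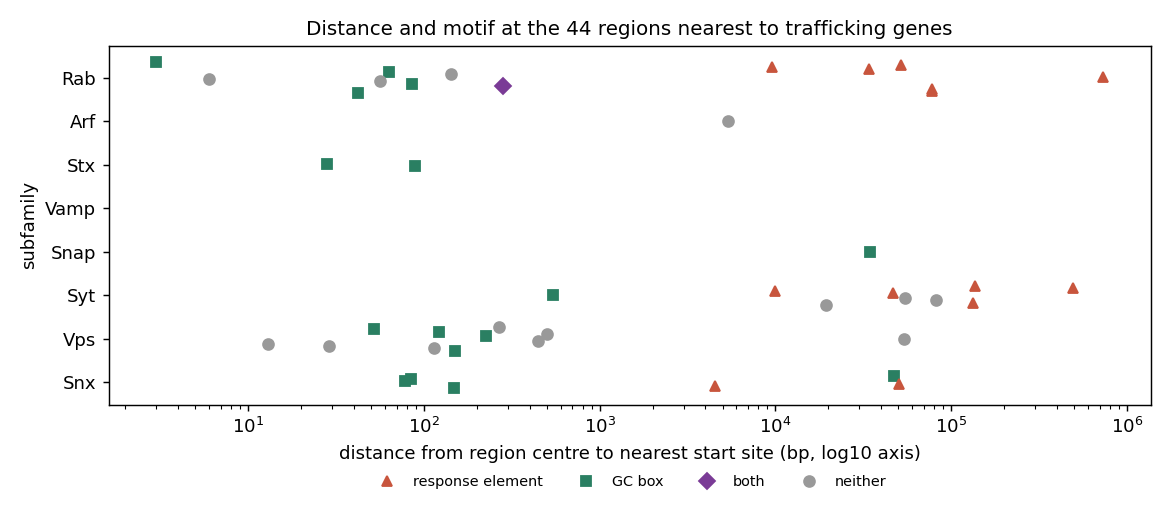
Distance from the centre of each of the 44 regions to the nearest start site on a log10 axis, by subfamily; symbols show which motif lay within 100 bp of the summit. Response elements (triangles) lie beyond 1 kb except at Rab3gap1 (diamond), and GC boxes (squares) lie within 1 kb except at Snap25 and Snx10.

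The subfamilies differed in how much of each was bound and in where. Synaptotagmins had 5 of 17 genes bound in the arcuate (29.4%, against 12.7% of all genes) and 4 in the AVPV (23.5%, against 10.2%). Within 20 kb these were 3 (17.6%, against 8.51%) and 1 (5.88%, against 7.14%). At promoters 0 of 17 had a peak in any library, a state shared by 90.2% of all genes. At any distance, Vps genes had 10 of 35 in the arcuate (28.6%) and 7 in the AVPV (20%), of which 6 and 5 at promoters. Sorting nexins had 6 of 30 (20%) and 3 (10%), Rab genes 10 of 69 (14.5%) and 9 (13%), syntaxins 2 of 15 in each nucleus (13.3%), Snap genes 1 of 5 and 0, Arf genes 0 of 6 and 1, and Vamp genes 0 of 7 in each nucleus. By library, sorting nexins with a peak were 3, 5, 4 and 7 in the arcuate and 2, 2, 7 and 2 in the AVPV. Rab genes with a peak were 10, 8, 9 and 8 in the arcuate and 7, 6, 12 and 10 in the AVPV. The promoter-rich libraries thus had the highest counts of sorting nexins, and AVPV library 3 that of Rab genes. The span of DNA nearest to a gene's start sites also differed between subfamilies. Its median was 137 kb for synaptotagmins, 34.6 kb for Vps genes, 17.7 kb for Vamp genes and 43.2 kb for all genes, and its part in these shares was not tested. The groups of 5 to 7 genes are too small for their percentages to be ranked.

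**Figure D4:**
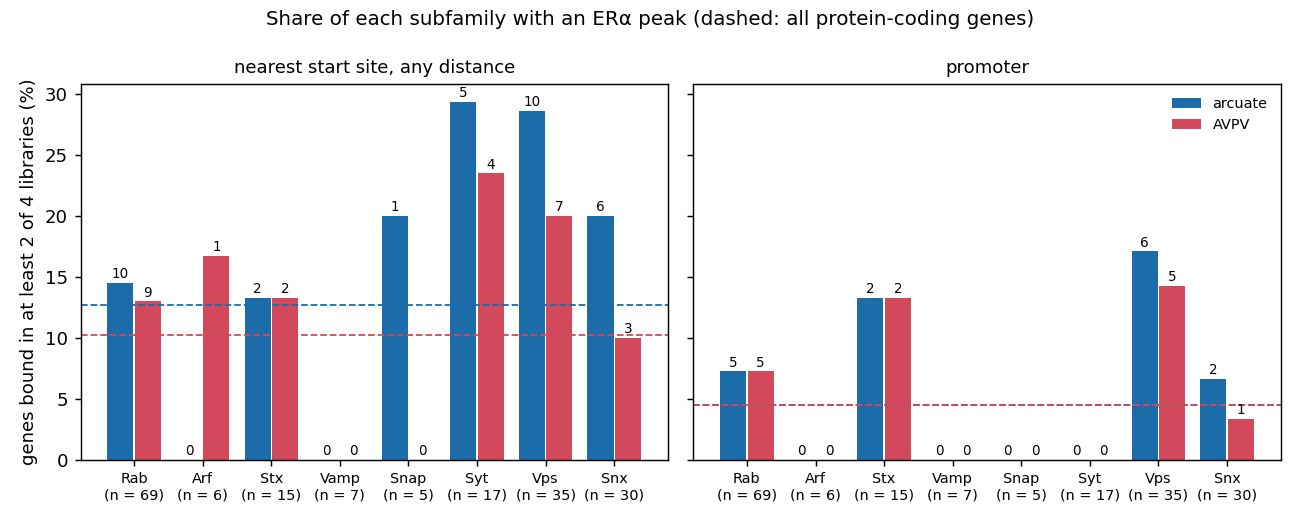
Percent of each subfamily bound in at least 2 of 4 libraries of the arcuate and the AVPV, by nearest start site and at promoters; numbers over the bars are genes, and dashed lines give all protein-coding genes. Synaptotagmins have the tallest bars on the left and none on the right, and Vps genes stand above the dashed lines in both panels.

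Of 8 genes of regulated release described whatever their values, 4 had no peak in any library, a state shared by 76.4% of all genes. These were Vamp2, the vesicle SNARE of synaptic release, Stx1a, its partner in the plasma membrane, Syt4, a synaptotagmin of dense-core vesicles, and Rab3a, a GTPase of synaptic vesicles. None of the 4 had a peak within the gene or 20 kb of it. Rab27b, a GTPase of secretory granules, had a peak in 1 arcuate library. Snap25, the plasma membrane SNARE that forms the fusion complex with Vamp2 and Stx1a, had a region 34.7 kb from its start site (chr2:136678619-136678972, intergenic), with a fold enrichment over the local background of 4.84 and 5.54 in arcuate libraries 2 and 3 and 5.40 in AVPV library 3. Syt9, a calcium sensor, had a region 19.3 kb from its start site (chr7:107351380-107351642, intergenic), with fold enrichments of 4.62, 5.11 and 7.21 in arcuate libraries 1, 2 and 4 and no peak in the AVPV. At 3 libraries against 0 the design cannot separate the nuclei.

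Syt1, the calcium sensor of fast transmitter release, was nearest to a peak in all 8 libraries, through several distant regions none of which was called in all 8. Its intronic region at 137 kb (chr10:108872427-108872719) had fold enrichments of 5.90, 5.54 and 5.77 in arcuate libraries 1, 3 and 4 and 4.45 and 7.51 in AVPV libraries 1 and 3. The intergenic region at 490 kb (chr10:109500821-109501120) had 6.41, 8.07 and 6.84 in arcuate libraries 1 to 3 and 4.91 and 8.80 in AVPV libraries 2 and 4. Both were called in both nuclei. Syt6 had 3 called regions at 54.3, 82.2 and 133 kb. The first (chr3:103630187-103630710, in an intron) and the last (chr3:103442585-103442862, intergenic) had peaks in 3 arcuate libraries each, at 7.18 to 8.30 and 7.30 to 8.21 fold, and none in the AVPV. The region at 82.2 kb had peaks in 3 arcuate and 2 AVPV libraries. Syt2, another sensor of fast release, had an intronic region at 10 kb (chr1:134656492-134656746) with 6.67 and 6.30 fold in arcuate libraries 1 and 2 only, and a region at 46.5 kb in an exon of Ppp1r12b, with 7.67 to 10.7 fold in 4 arcuate libraries and 5.04 and 7.05 in AVPV libraries 2 and 4. Of the 9 called synaptotagmin regions, 4 were called in the arcuate only and 0 in the AVPV only (33.1% and 16.2% of the regions of all genes). A response element was in 5, all of them among the 8 distant regions of the family, against 55% of the distant regions of all genes. This was not particular to synaptotagmins. Of the 14 called Rab regions, 8 lay within 1 kb and 7 held an element, as did every Rab region beyond 1 kb. Outside exons the synaptotagmin elements are shown as examples of distant regions. They are in capitals on the plus strand of GRCm38.p6, with 20 bases on each side:
Syt1, chr10:108872584-108872638: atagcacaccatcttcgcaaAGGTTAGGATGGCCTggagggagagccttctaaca
Syt1, chr10:109500937-109500991: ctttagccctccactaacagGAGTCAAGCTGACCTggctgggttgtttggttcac
Syt2, chr1:134656590-134656644: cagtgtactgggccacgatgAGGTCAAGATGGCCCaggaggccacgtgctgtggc
Syt6, chr3:103442708-103442762: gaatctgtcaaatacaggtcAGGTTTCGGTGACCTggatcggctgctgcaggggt
Each of these 4 has 2 mismatches.

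Syt3 was the exception among synaptotagmins. Its region lay in the first kb of the gene (chr7:44384263-44385077, in an intron 0.544 kb from the start site), with a GC box and no response element. Fold enrichments were 13.9, 9.42, 14.7 and 11.2 in the arcuate and 17.8, 11.6, 15.0 and 9.93 in the AVPV, and the nuclei overlapped.

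Vps genes held the strongest peaks. Vps52, a subunit of the GARP tether of the trans-Golgi network, had fold enrichments of 28.2, 29.9, 28.0 and 29.6 in the arcuate and 21.6, 24.0, 30.1 and 23.3 in the AVPV at chr17:33955254-33956569, a promoter that it shares with the ribosomal protein gene Rps18. The peak lay at or above the 96.6th percentile of fold enrichment in each library. Vps13b, a lipid transfer protein of the Golgi, had 24.6, 22.1, 27.4 and 28.9 in the arcuate and 14.1, 19.9, 28.8 and 20.1 in the AVPV at chr15:35370917-35371858, in an exon 0.269 kb from the start site. In both genes 3 of 4 AVPV libraries lay below every arcuate library, while AVPV library 3 did not.

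Other Vps genes with a peak in all 8 libraries were Vps25 of the ESCRT-II complex (10.8 to 12.1 fold in the arcuate, 11.1 to 15.3 in the AVPV), Vps9d1, with a domain found in activators of Rab5 (9.05 to 17.7 and 10.2 to 15.0), Vps51 of GARP (8.79 to 13.9 and 9.19 to 13.1), Vps45, a partner of syntaxins on endosomes (8.02 to 12.9 and 5.76 to 11.3), and Vps26c of the retriever complex (3.84 to 6.69 and 5.02 to 9.70). Their ranges overlapped between the nuclei. All 7 of these Vps regions lay within 1 kb of the start site and none held a response element. Vps25 had a second region 0.499 kb upstream, with 5.01 and 6.53 fold in AVPV libraries 3 and 4 only. For 2 of these promoters 101 bases around the summit held no exon, and they are shown as examples of the near kind of region (plus strand, with GC boxes in capitals, where present; chosen after the values were seen):
Vps51, chr19:6077249-6077349: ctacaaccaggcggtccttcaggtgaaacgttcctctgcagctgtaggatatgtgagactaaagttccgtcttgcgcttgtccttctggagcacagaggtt
Vps26c, chr16:94526795-94526895: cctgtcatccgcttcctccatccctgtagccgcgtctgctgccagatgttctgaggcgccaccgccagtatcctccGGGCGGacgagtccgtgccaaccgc

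By nearest start site, Vps35l, another retriever subunit, was the Vps gene with peaks in 3 arcuate and 0 AVPV libraries. Its intronic region at 53.9 kb (chr7:118793967-118794463) had 10.8, 5.92 and 8.57 fold in arcuate libraries 1 to 3 and no peak in arcuate library 4 or in the AVPV. Without the 2 promoter-rich libraries, which include arcuate library 4, it separated the nuclei completely, at 3 libraries against 3. The share of all genes that did so is not given here. Counting any peak within the gene or 20 kb of it, however, Vps35l had a peak in all 8 libraries. Vps16, a subunit of the HOPS and CORVET tethers, had a promoter region shared with Pced1a, with 4.50, 5.74, 6.65 and 8.43 fold in the arcuate and 3.38 in AVPV library 4 alone.

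Among Rab genes, 4 had a peak in all 8 libraries, and Rab23, a GTPase of the primary cilium, was the one whose fold enrichment passed the test between nuclei. Its promoter region (chr1:33719832-33720247, shared with Gm32229) had 10.3, 9.42, 8.47 and 6.13 fold in the arcuate and 3.35, 6.12, 6.48 and 6.53 in the AVPV. The nuclei overlapped, since arcuate library 4 lay below 2 AVPV libraries, and AVPV library 1 was far below the others. The log2 difference was 0.623 ± 0.213 (SE) in limma on median-centred log2 fold enrichment, with an adjusted p of 0.0427 over the 1089 regions with a peak in all 8 libraries. Without AVPV library 1 the log2 difference was 0.422 and the adjusted p 0.191. The call was also lost without arcuate library 1, 2 or 3 (limma, adjusted p = 0.0847, 0.115 and 0.0841), so that 4 of 8 single removals ended it. Of the 14 trafficking regions in this test 1 was called (Rab23), against 19.4% of the 1089. Rab33b, a Golgi GTPase with a role in autophagy, had 8.24, 5.81, 9.81 and 7.65 fold in the arcuate and 10.5, 8.96, 11.3 and 12.8 in the AVPV (chr3:51483701-51484403), a log2 difference of -0.488 ± 0.194 (SE) that did not pass (limma, adjusted p = 0.0804). The median log2 difference of the 14 regions was -0.0365, against 0.0166 over all 1089.

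Rab29, a GTPase of the trans-Golgi network and lysosomes, was not in that test because arcuate library 3 had no peak there. Its promoter region (chr1:131866909-131867657) had 4.46, 3.87 and 3.57 fold in arcuate libraries 1, 2 and 4 and 13, 10.5, 8.37 and 6.18 in the AVPV, so that every AVPV library lay above every arcuate library with a peak. When regions with peaks in at least 3 libraries of each nucleus were tested, with the missing library left out of the fit of that region, Rab29 passed (limma log2 difference -1.25, adjusted p = 6.94e-04). It was the 1 region called among the 20 trafficking regions of that test, against 15.8% of its 1577 regions, while by presence of a peak Rab29 counted as bound in both nuclei.

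**Figure D5:**
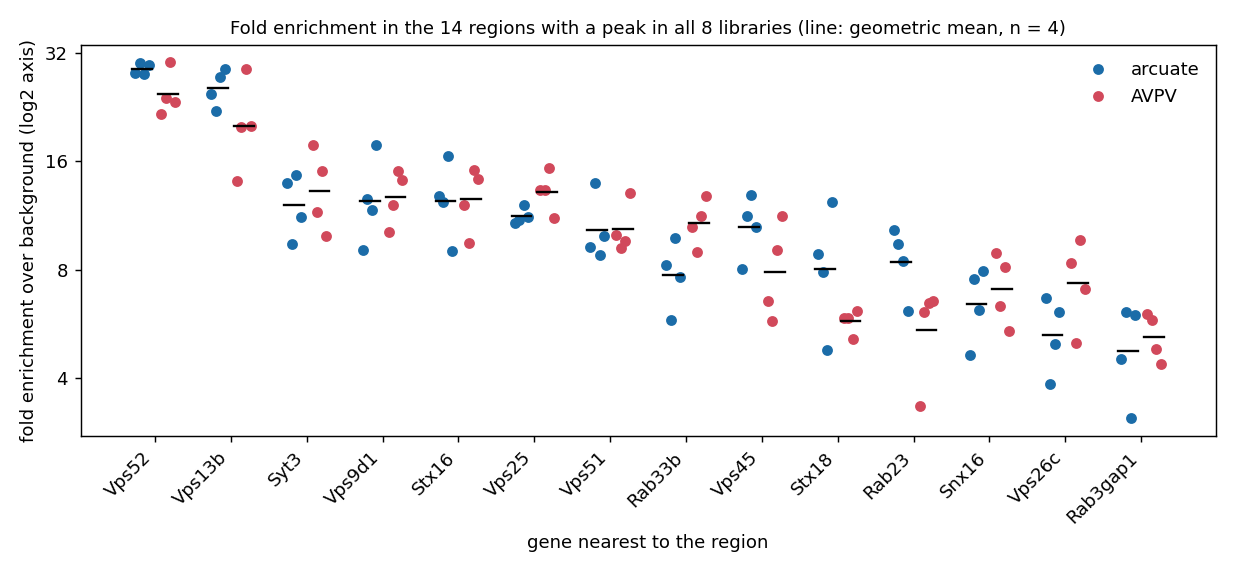
Fold enrichment over the local background (log2 axis) of the 14 regions with a peak in all 8 libraries; points are libraries and lines are geometric means of 4. Arcuate points of Rab23 lie mostly above the AVPV points, those of Rab33b mostly below, and Vps52 and Vps13b reach 30.1 and 28.9.

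Rab3gap1, which encodes a subunit of the enzyme that inactivates Rab3, had 3 called regions. The intronic region 0.283 kb from its start site (chr1:127868756-127869357) ranged from 3.09 to 6.11 fold over arcuate and 4.37 to 6.01 over AVPV libraries. The region 77.7 kb from the start site (chr1:127946265-127946596) had 5.09, 4.54, 5.49 and 7.16 fold in arcuate libraries 1 to 4 and no peak in any AVPV library. A neighbour at 77.2 kb (chr1:127945806-127946177) had 4.94 and 6.75 fold in arcuate libraries 1 and 4. These distant regions lie beyond the annotated end of Rab3gap1. Their elements and the 20 bases on each side are lower-case, repeat-masked sequence in the assembly over their whole length, and the 2 windows of 55 bases, which start 475 bp apart, differ at 1 base. Elements in repeat-masked sequence were 2 of 14 at trafficking regions (14.3%) and 4.19% at the regions of all genes. How reads that match several copies were assigned is not given in the sources used here, and its part in these peaks was not tested. The 3 windows were, with the element in capitals on the plus strand:
Rab3gap1, chr1:127869097-127869151: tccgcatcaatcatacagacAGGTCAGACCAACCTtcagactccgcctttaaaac
Rab3gap1, chr1:127945969-127946023: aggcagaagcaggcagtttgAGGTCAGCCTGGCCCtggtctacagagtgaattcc
Rab3gap1, chr1:127946444-127946498: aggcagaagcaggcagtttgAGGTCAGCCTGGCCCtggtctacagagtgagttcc

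Among the 44 regions called in a nucleus, the 2 with a response element of no mismatch were nearest to Rab genes. They were singled out after their values were seen. Rab28, a GTPase of cilia, was the gene nearest to an intergenic region 731 kb away (chr5:40976203-40976707), with 15.7, 7.59, 10.7 and 8.66 fold in the arcuate and 4.97, 5.63 and 9.39 in AVPV libraries 1, 3 and 4. Rab11fip2, an effector of Rab11, was nearest to a region 51.5 kb away (chr19:59994928-59995340), with 7.95, 7.62 and 4.65 fold in arcuate libraries 1 to 3 and none in the AVPV. Of the 44 regions, at most 1 mismatch was found in these 2 alone (4.55%), against 14.3% of the regions of all genes. TGANTCA also lay within 100 bp of both summits, overlapping the element at Rab28. The elements were, with 20 bases on each side:
Rab28, chr5:40976385-40976439: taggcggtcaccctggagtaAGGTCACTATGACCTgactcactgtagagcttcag
Rab11fip2, chr19:59995200-59995254: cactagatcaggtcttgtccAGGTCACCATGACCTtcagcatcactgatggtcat

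Rab12, a GTPase of endosomal recycling, was nearest to peaks in all 8 libraries through regions at 34.0 kb (3.97 to 7.82 fold in 3 arcuate and 4.73 to 7.20 in 4 AVPV libraries) and 9.54 kb (4.89 to 10 in 3 arcuate and 5.49 to 7.85 in 3 AVPV libraries), each with a response element of 2 mismatches. The AVPV-only gene of this family, Rab11a of recycling endosomes, had 4.34 and 5.11 fold in AVPV libraries 3 and 4, at its promoter. Arf2, a Golgi GTPase, with 4.45 and 6.57, and Snx10, a sorting nexin of endosomes, with 4.71 and 4.69, had their peaks in AVPV libraries 1 and 3. All 3 genes bound in the AVPV only thus needed AVPV library 3, and without it 0 remained.

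Both syntaxins with peaks in all 8 libraries act away from the synapse. Stx16, a SNARE of the trans-Golgi network, had 12.8, 12.3, 16.5 and 9.02 fold in the arcuate and 12.1, 9.47, 15.1 and 14.3 in the AVPV at its promoter (chr2:174075747-174076801). Stx18, a SNARE of the endoplasmic reticulum, had 8.85, 7.88, 4.80 and 12.3 in the arcuate and 5.88, 5.89, 5.13 and 6.16 in the AVPV (chr5:38038975-38039663). The nuclei overlapped at both, with log2 differences of -0.0255 ± 0.201 (SE) and 0.466 ± 0.233 (SE) in limma (adjusted p = 0.937 and 0.160). The difference at Stx18 was 0.710 without arcuate library 3, its lowest arcuate value, and then passed (limma, adjusted p = 0.0332).

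Among sorting nexins, Snx16, a protein of early endosomes, had a peak in all 8 libraries at its promoter (chr3:10439939-10440492), at 4.62 to 7.94 fold over arcuate and 5.39 to 8.89 fold over AVPV libraries. Snx19 was nearest to peaks in 3 arcuate and 0 AVPV libraries, but these fell in 3 regions, of which the one called, 50.6 kb away (chr9:30477780-30478100), had 5.49 and 5.87 fold in arcuate libraries 1 and 4 and a response element of 2 mismatches. The other 3 sorting nexins bound in the arcuate only were Snx2, Snx3 and Snx17, each in 2 arcuate libraries. Without the 2 promoter-rich libraries, Snx2 remained among them and Snx3 and Snx17 did not. The Snx2 peaks, however, fell in different regions, neither of which was called. They lay 118 kb away (3.68 fold, arcuate library 2) and 0.339 kb away (4.89 fold, arcuate library 3). Snx3 also had a peak of 4.09 fold in AVPV library 3. The Snx17 promoter is shared with Eif2b4, and its region also had a peak of 4.25 fold in AVPV library 3. Within the gene or 20 kb of it, Snx17 had peaks in 4 arcuate and 3 AVPV libraries.

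Other genes of the same machinery that the symbol rule does not reach, such as Munc18 and Munc13 genes, complexins, RIMs, synapsins and further SNAREs, were counted as a list of 79, all of them found in the annotation. In the arcuate 14 (17.7%) and in the AVPV 6 (7.59%) were bound, 5 of them in both, against 12.7%, 10.2% and 8.24% of all genes. These gaps rest on few genes and were not tested. Sec22b and Bet1l, SNAREs of the endoplasmic reticulum and the Golgi, had a peak in all 8 libraries (2 of 79, against 4.20% of all genes). Arfip1, an Arf-binding protein, had a promoter peak in 4 arcuate and 0 AVPV libraries. This was 1 of 79, against 0.0714% of all genes at promoters and 0.405% at any distance.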

How the data were processed

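The deposited files were narrowPeak lists of 8 ERα libraries. The 2 pooled inputs have no peak list here. Per the labels and methods, the authors aligned single-end reads to mm10 with Bowtie2 2.5.0 and called peaks in each library with MACS2 2.2.7.1. Deposited per peak were a fold enrichment (a ratio over local background) and the −log10 p-value and q-value. The authors' score was not used. Peaks were assigned to RefSeq GRCm38.p6 start sites (NM and NR transcripts), whose chromosomes hold every peak. No 2 libraries shared an identical peak. Regions with peaks in all 8 libraries were compared with limma 3.58.1 (R 4.3.3) on log2 fold enrichment centred on each library's median, with Benjamini-Hochberg adjustment, a method tested on simulated data; Fisher's exact test was used per gene. Same-numbered libraries did not deviate together (correlations -0.311 to 0.1), so numbers were not treated as pairs. A CpG-rich start site had an observed/expected CpG ratio of at least 0.6 and GC of at least 0.5. Python 3.11.15, numpy 2.4.6, scipy 1.17.1 and pysam 0.24.0 were used. The members and lists were chosen with earlier results of these data known. Named were genes with a peak in all 8 libraries, with at least 3 libraries against 0, with a promoter peak in all 4 libraries of a nucleus, the 6 with most called regions, and 9 genes of regulated release, 1 of which is not reported here; genes named outside this rule were chosen after their values were seen.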

Additional observations from a re-analysis of the deposited data

Results flagged for a closer look

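At the Rab23 promoter the fold enrichment of 3.35 in AVPV library 1 lay farther from the other 3 AVPV libraries (6.12 to 6.53) than Dixon's 95% critical value for groups of 4 allows. It was the 1 value so marked among 34 groups tested, and chance marks about 1 group in 20.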

How the results depend on the processing

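The alternatives left trafficking genes above all protein-coding genes in both nuclei, except in some divisions of the genes. Among genes with a CpG-rich start site the differences were 0.270 percentage points in the arcuate and -1.67 in the AVPV. Among genes without one they were 11.4 and 11.1. With peaks in the gene or within 20 kb of it they were 12 and 9.80. Among the 7001 genes with the shortest spans of DNA nearest to their start sites, the AVPV shares were 7.69% and 7.84%. The arcuate shares there were 11.5% and 8.64%. Among the 7000 with the longest spans the shares were 29.2% and 19.2% in the arcuate and 23.1% and 15.0% in the AVPV. The number of genes bound in the arcuate only was 7 at a fold enrichment above 5 and 5 in lists of equal length. It was 7 with at least 3 libraries and 4 with all 4. Within 20 kb it was 7 (3.80%, against 2.73% of all genes) and at promoters 2 (1.09%, against 1.14%). In the AVPV only it was 1 at a -log10 q of at least 5 and 5 when protein-coding start sites alone competed. It was 12 with at least 1 library, 0 with at least 3 and 1 with all 4. At promoters it was 0 (against 1.13% of all genes) and with gene bodies 5 (2.72%, against 2.47%). For the other settings in this paragraph, the share of all genes bound in a single nucleus was not counted. Bound genes were 42 in the AVPV with at least 1 library, a share 7.17 percentage points above that of all genes. With all 4 libraries they were 20 in the arcuate and 17 in the AVPV, 4.60 and 3.67 points above. At promoters they were 15 (8.15%, against 4.48% of all genes) and 13 (7.07%, against 4.47%). With gene bodies they were 59 (32.1%, against 20.1%) and 49 (26.6%, against 16.8%). Complete separation was found for 1 gene, Rab29 towards the AVPV, at a fold enrichment above 5 and again in lists of equal length. The share of all genes separated in these settings is not given here, so this count has no background beside it.

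The arcuate minus AVPV mean of promoter counts turned to -1.50 at a fold enrichment above 5, -0.500 at a -log10 q of at least 5 and -1.50 in lists of equal length, in which the count within 20 kb also turned, to -0.750, and the difference at any distance was 1.5 in place of 5.25 genes. The shares with a response element were 4.55% with at most 1 mismatch, 13.8% within 20 kb of the start site and 35.3% without both promoter-rich libraries. The number of trafficking regions called by limma was 0 without centring and 0 after quantile normalization, against 1 (Rab23). The cause of these changes was not tested. An exact permutation test in place of limma called 0 of all 1089 regions, against 211 by limma. With so few libraries it could call a region only if most regions reached the smallest p possible. After adjustment it therefore could not decide about any region. For Rab23 its unadjusted p was 0.0571.

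Without both promoter-rich libraries, an alternative chosen after the data were seen like the CpG divisions, 0 genes were bound in the AVPV only and 1 separated the nuclei completely (Vps35l). The shares of all genes in these classes are not given here. Leaving out 1 library at a time gave 7 to 14 genes bound in the arcuate only, 0 to 4 genes bound in AVPV alone, 0 to 2 with complete separation, promoter differences of -0.333 to 2 and 0 to 1 called regions, which was Stx18 without arcuate library 3 and otherwise Rab23. The lowest arcuate-only count came without arcuate library 2 or 3, and the lowest AVPV-only count without AVPV library 3. The labels do not say whether library numbers pair the samples, and they were not treated as pairs in the main results. A replicate block, on which the count difference of 5.25 genes has an SD of 8.38 over 4 pairs, left 1 region called by limma (Rab23, adjusted p = 0.0406). All results are limited by 4 libraries a nucleus, pooled chromatin, peak lists without read counts and assignment by distance alone.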
